A study of Mus musculus with 8 samples.

Results

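The core circadian clock was examined in skeletal muscle through 10 genes chosen by symbol: the activators *Arntl*, *Clock* and *Npas2*, the repressors *Per1*, *Per2*, *Per3*, *Cry1*, *Cry2* and *Nr1d1*, and the output gene *Dbp*. These were 10 of the 27041 rows of the count table, and 9 of them had a mean count above 50 and were tested. *Npas2*, with 3 to 15 reads per library, was not. RNA-seq libraries were made from gastrocnemius muscle of 9-week-old male C57BL/6J mice. In LSD1skm-/- mice the floxed first exon of the gene for the histone demethylase LSD1 (*Kdm1a*) was removed by HSA-Cre, which acts in myofibers, so that the other cells of the muscle keep the gene. Ctrl mice carried the same floxed alleles without Cre. Mice were kept in a light and dark cycle with free access to chow, and the hour at which muscles were taken is not given in the sources used here. Counts were analysed for 4 Ctrl and 2 LSD1skm-/- libraries. LSD1skm-/- replicates 3 and 4 were not analysed here. The labels give the libraries as replicates without saying that each came from a separate mouse, so p-values measure the spread between these libraries.

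In most cells the clock is a loop of transcription factors. BMAL1, the product of *Arntl*, pairs with CLOCK or NPAS2, binds E-box sequences and drives the *Per*, *Cry*, *Nr1d1* and *Dbp* genes. PER and CRY proteins then block that pair, while REV-ERBα, the product of *Nr1d1*, competes with ROR proteins at ROR elements to hold *Arntl* down, so that over the day *Arntl* is high when *Nr1d1* and *Dbp* are low. In muscle this clock times fuel use and part of the contractile and repair programme.

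No clock gene differed between the groups by the thresholds used for all genes, and the wider differences lay between single libraries of both groups. *Arntl* ranged 1.73-fold and *Nr1d1* 2.1-fold over the 6 libraries. *Arntl* was high in Ctrl replicates 3 and 1 and LSD1skm-/- replicate 1, and low in the other libraries of both groups. *Cry1* was the only tested clock gene whose LSD1skm-/- libraries both lay outside the Ctrl range, beside 17.8% of all genes tested, and its difference did not pass the test.

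Libraries held from 30654828 to 41278769 reads. *Kdm1a* stood at 23.0, 22.0 and 28.1 CPM (counts scaled to library size, with TMM correction for library composition) in Ctrl replicates 1 to 3, but at 3.66 in Ctrl replicate 4, beside 2.96 and 3.48 in the LSD1skm-/- libraries. The library labelled Ctrl replicate 4 thus went against its label, so the clock gene comparisons are also given with that library left out. The 6 myofiber markers, *Ckm* and *Acta1* among them, summed to 144300 to 174500 CPM in every library. Of these, *Myh4* was lower in LSD1skm-/- muscle by an unadjusted p under 0.05 and the fold threshold. Its log2 fold change was -0.42 (unadjusted p = 0.0408, adjusted p = 0.557 in edgeR), and -0.52 without Ctrl replicate 4 (adjusted p = 0.0662). By the labels, 5 of 6 adipocyte and 4 of 5 slow fiber markers passed an unadjusted p under 0.05 and the fold threshold as lower in LSD1skm-/- muscle. As higher, 3 of 3 blood and 2 of 4 fibroblast markers passed both. Of all genes tested, 2.88% passed both as lower and 3.43% as higher. At an adjusted p under 0.05 in edgeR, 0 of these markers passed. Of 4 endothelial markers, 2 had an unadjusted p under 0.05 as lower and 1 of these also passed the fold threshold. With Ctrl replicate 4 left out, 2 blood markers, 1 fibroblast marker and 1 slow fiber marker passed the adjusted p, beside 5.39% of all genes tested. The summed adipocyte level ranged from 172 to 489 CPM in Ctrl and from 166 to 177 CPM in LSD1skm-/- libraries, and the summed slow fiber level from 644 to 1356 and from 227 to 484 CPM. The part of these cell types in the clock gene values was not tested, and fewer cells of a type and less RNA per cell cannot be told apart in whole muscle.

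The promoter windows of the clock genes, from 250 bases before to 50 after the RefSeq start (GRCm38.p6), were searched for the elements of the loop, and stretches of some of them are shown. A window was present for 9 of the 10 genes. The E-box, CACGTG, is the site of the activators, and its variant CACGTT was also searched. The D-box, TTATGNAA, is the site of DBP and its relatives, and the ROR element, TAGGTCA, is the site where REV-ERBα and ROR proteins compete. Both strands were searched, and none of these motifs overlapped another in the stretches printed. Capitals mark the matches.
Per1, chr11:69098699-69098948, + strand, the 250 bases before the start, with an E-box and a D-box: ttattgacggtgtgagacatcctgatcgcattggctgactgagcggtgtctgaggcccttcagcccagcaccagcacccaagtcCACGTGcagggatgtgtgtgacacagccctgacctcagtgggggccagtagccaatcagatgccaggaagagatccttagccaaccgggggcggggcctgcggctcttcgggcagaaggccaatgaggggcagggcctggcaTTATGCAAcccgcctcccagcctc
Cry1, chr10:85185055-85185304, - strand, the 250 bases before the start, with the E-box variant (on the opposite strand) and an E-box: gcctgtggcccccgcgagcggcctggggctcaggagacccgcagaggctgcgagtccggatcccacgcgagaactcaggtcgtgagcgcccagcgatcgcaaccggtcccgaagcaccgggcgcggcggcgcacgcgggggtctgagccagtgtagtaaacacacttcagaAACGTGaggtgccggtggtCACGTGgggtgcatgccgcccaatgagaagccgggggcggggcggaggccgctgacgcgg
Per3, chr4:151044666-151044915, - strand, the 250 bases before the start, with a pair of D-boxes: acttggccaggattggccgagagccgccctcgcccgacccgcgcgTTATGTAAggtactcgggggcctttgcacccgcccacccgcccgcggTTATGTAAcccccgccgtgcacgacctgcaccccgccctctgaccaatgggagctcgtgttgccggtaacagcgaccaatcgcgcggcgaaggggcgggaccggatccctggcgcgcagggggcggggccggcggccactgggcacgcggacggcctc
Nr1d1, chr11:98775388-98775417, - strand, 30 bases shortly before the start, with the E-box variant on the opposite strand: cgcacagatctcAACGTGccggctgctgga
Arntl, chr7:113207530-113207559, + strand, 30 exonic bases just after the start, with a ROR element: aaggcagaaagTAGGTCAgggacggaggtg
Nfil3, chr13:52981033-52981062, - strand, 30 bases around the start, with a ROR element on the opposite strand: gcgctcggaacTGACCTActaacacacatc
*Per1* and *Cry1* were chosen because their windows hold the E-box, *Per3* because its window holds 2 D-boxes, *Nr1d1* as an example of the E-box variant before a start, and *Arntl* and *Nfil3* because they share the ROR element and their 3 highest libraries. The *Per1* stretch lies inside the annotated span of the gene with 1 base in its exons, the *Cry1* stretch ends with 10 exonic bases, and the *Per3* stretch is also spanned by *Camta1*. The *Cry2* window, not printed, held the E-box variant 166 bases before the start. Of the 9 genes with a window, 2 held the E-box, 3 the variant, 2 the D-box and 1 the ROR element. *Clock*, *Npas2* and *Dbp* held none of them, and *Per2* had no window. Over all 32851 windows of this length, 7.15% held the E-box, 4.68% the variant, 3.38% the D-box and 2.61% the ROR element. A glucocorticoid response element was also searched, and 0 of the 9 genes held it, beside 0.475% of all windows. The 9 genes had 13 windows, so shares of genes and of windows are not directly comparable. A match is a description of the sequence and was not tested for binding.

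Per length, the clock genes spanned a wide range of levels. Reads scaled by exon length and library size (RPKM) averaged 32.4 for *Dbp* over the 6 libraries (25.6 to 43.0), 15.5 for *Nr1d1* (11.8 to 24.9) and 12.5 for *Per1* (11 to 16.1). *Cry2* (6.28), *Cry1* (5.26), *Per2* (4.08) and *Per3* (2.13) followed. The activators were lowest, with 1.75 RPKM for *Arntl*, 1.67 for *Clock* and 0.0537 for *Npas2*. The ranges of neighbours in this order overlapped for *Nr1d1* and *Per1*, *Cry2* and *Cry1*, *Cry1* and *Per2*, *Per3* and *Arntl*, and *Arntl* and *Clock*. They did not overlap between *Dbp* and *Nr1d1*, *Per1* and *Cry2*, *Per2* and *Per3*, or *Clock* and *Npas2*, so the output gene stood at the top of the order and *Npas2* at the bottom in every library.

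**Figure D1:**
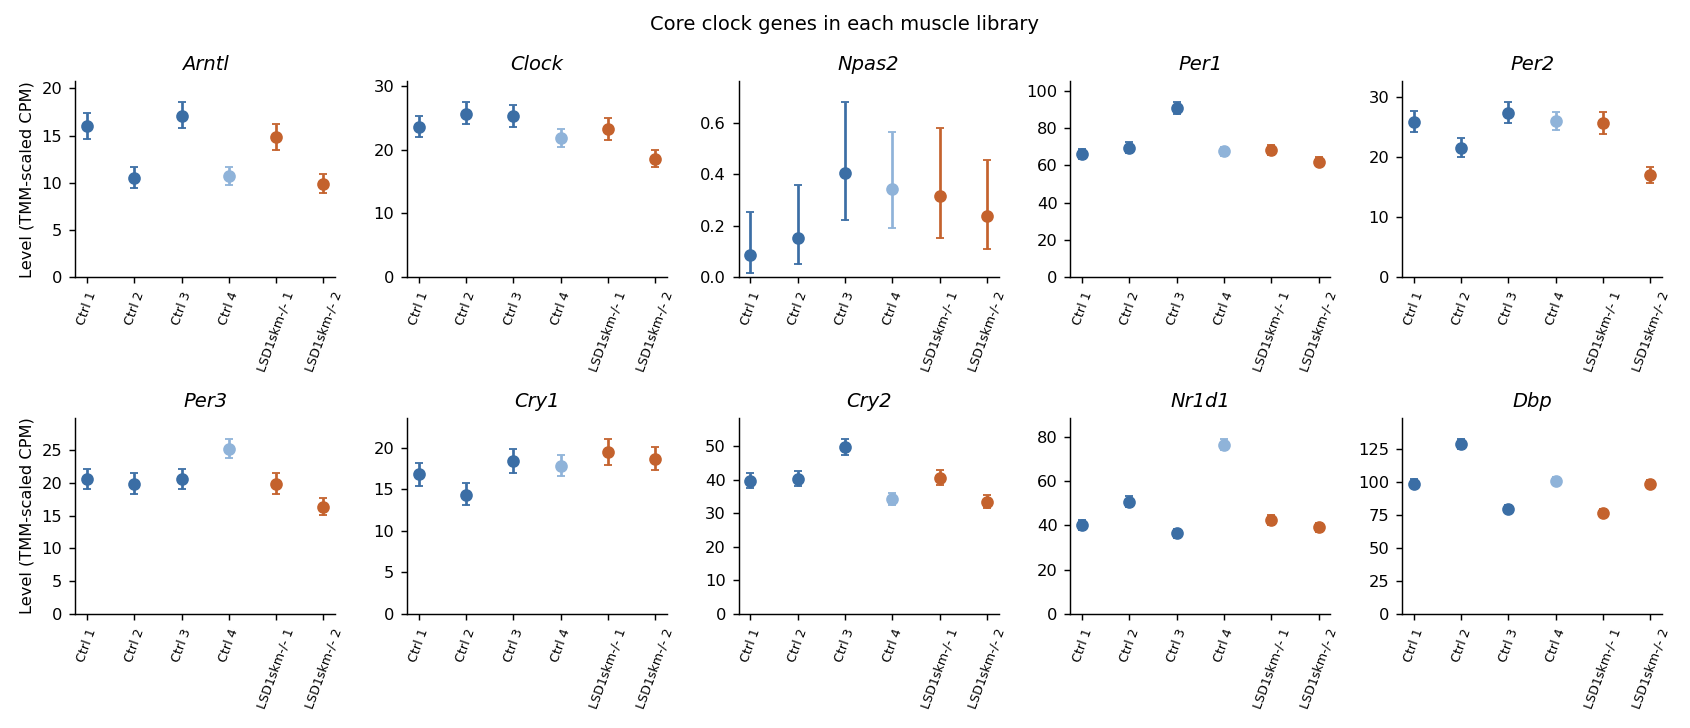
Level of each of the 10 clock genes (y axis, TMM-scaled CPM, from 0) in each library (x axis; dark blue Ctrl 1 to 3, light blue Ctrl 4, orange LSD1skm-/-), with exact 95% Poisson intervals of the counts as bars. *Arntl* is at 14.8 to 17.1 in 3 libraries of both groups and at 9.86 to 10.7 in the others, and *Nr1d1* reaches 76.5 in Ctrl 4.

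*Arntl* (ENSMUSG00000055116.8, chr7:113207465-113314126, + strand, GRCm38) encodes BMAL1, the activator that the loop cannot run without. It stood at 16.0, 10.5, 17.1 and 10.7 CPM in Ctrl replicates 1 to 4 and at 14.8 and 9.86 CPM in LSD1skm-/- replicates 1 and 2. Each group held high and low libraries, and the groups overlapped. Counting error was smaller than this gap, since the exact Poisson intervals of the 3 high libraries began at 13.5 CPM or above and those of the 3 low libraries ended at 11.7 CPM or below. The log2 fold change of LSD1skm-/- over Ctrl was -0.14 (SE 0.26, 95% interval -0.75 to 0.47), with an adjusted p-value of 0.867 in edgeR's quasi-likelihood test, and without Ctrl replicate 4 it was -0.24 (adjusted p = 0.650). Its sign rested on 1 library, since without LSD1skm-/- replicate 2 it was 0.13.

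*Clock* (ENSMUSG00000029238.11, chr5:76209868-76304792, - strand) encodes the usual partner of BMAL1 and is known to cycle little. Its levels were 23.5, 25.6, 25.2 and 21.8 CPM in Ctrl and 23.2 and 18.6 CPM in LSD1skm-/- libraries. LSD1skm-/- replicate 2 was the lowest, and replicate 1 lay between Ctrl replicates 1 and 4. The log2 fold change was -0.20 (SE 0.13, interval -0.50 to 0.10), with an adjusted p of 0.632 in edgeR. Without Ctrl replicate 4 both LSD1skm-/- libraries lay below the Ctrl range, at a log2 fold change of -0.25 (adjusted p = 0.343). With LSD1skm-/- replicate 1 left out the log2 fold change was -0.38 (unadjusted p = 0.0367), past both thresholds, and with LSD1skm-/- replicate 2 left out it was -0.05 (unadjusted p = 0.732).

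*Npas2* (ENSMUSG00000026077.15, chr1:39193731-39363236, + strand), the alternative partner of BMAL1 that is prominent in forebrain, was close to the floor of detection in these muscles. It had 3, 5, 14 and 15 reads in Ctrl and 10 and 9 reads in LSD1skm-/- libraries. The exact Poisson interval of the lowest library, 0.619 to 8.77 reads, overlapped that of the highest, 8.40 to 24.7 reads, and the groups overlapped. In a fit over all 27041 rows without the filter, its log2 fold change was 0.12 (SE 0.63, interval -1.17 to 1.42, adjusted p = 0.958), a range too wide to place its direction at this depth.

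Among the repressors, *Per1* (ENSMUSG00000020893.17, chr11:69095217-69109960, + strand) and *Per2* (ENSMUSG00000055866.9, chr1:91415982-91459324, - strand) encode the PER proteins that carry CRY into the nucleus. *Per1* stood at 66.0, 69.4, 90.6 and 67.4 CPM in Ctrl and at 68.1 and 61.9 CPM in LSD1skm-/- libraries. Ctrl replicate 3 was high, and the other 5 libraries lay within 61.9 to 69.4 CPM. *Per2* stood at 25.9, 21.5, 27.3 and 26.0 CPM in Ctrl and at 25.6 and 17.0 CPM in LSD1skm-/- libraries. Here LSD1skm-/- replicate 2 was low, while replicate 1 lay inside the Ctrl range. The log2 fold changes were -0.17 for *Per1* (SE 0.15, interval -0.53 to 0.18) and -0.24 for *Per2* (SE 0.18, interval -0.66 to 0.17), with adjusted p-values of 0.712 and 0.667 in edgeR. Without Ctrl replicate 4 they were -0.21 and -0.23 (adjusted p = 0.5001 and 0.564). *Per2* rested on 1 library: without LSD1skm-/- replicate 2 its log2 fold change was 0.02, and without LSD1skm-/- replicate 1 it was -0.575 (unadjusted p = 0.0145 in edgeR), past both thresholds. The value of *Per1* was -0.06 without Ctrl replicate 3.

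*Per3* (ENSMUSG00000028957.12, chr4:151003652-151044665, - strand) is the least required of the *Per* genes for rhythm. Its levels were 20.6, 19.9, 20.6 and 25.2 CPM in Ctrl and 19.9 and 16.3 CPM in LSD1skm-/- libraries. Ctrl replicate 4 was the highest and LSD1skm-/- replicate 2 the lowest, with the other 4 libraries between 19.9 and 20.6 CPM. *Per3* had the smallest adjusted p-value of the clock genes, 0.601, at a log2 fold change of -0.25 (SE 0.14, interval -0.58 to 0.08). Without Ctrl replicate 4 the log2 fold change was -0.17 (adjusted p = 0.502), and with each LSD1skm-/- library left out in turn it was -0.41 and -0.12.

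*Cry1* (ENSMUSG00000020038.10, chr10:85131700-85185064, - strand) and *Cry2* (ENSMUSG00000068742.11, chr2:92403646-92434043, - strand) encode the repressors that block CLOCK and BMAL1 directly. *Cry1*, whose window is shown above with both E-box forms, stood at 16.8, 14.3, 18.4 and 17.8 CPM in Ctrl and at 19.5 and 18.6 CPM in LSD1skm-/- libraries. Both LSD1skm-/- libraries lay above the Ctrl range, but the counting intervals of Ctrl replicate 3 and LSD1skm-/- replicate 2 overlapped. It was 1 of 9 tested clock genes to lie wholly above Ctrl, beside 9.8% of all genes tested. The log2 fold change was 0.18 (SE 0.13, interval -0.12 to 0.47), with an adjusted p of 0.658 in edgeR, and 0.21 without Ctrl replicate 4 (adjusted p = 0.444). *Cry2* stood at 39.7, 40.3, 49.8 and 34.3 CPM in Ctrl and at 40.7 and 33.5 CPM in LSD1skm-/- libraries. Ctrl replicate 3 was high, Ctrl replicate 4 and LSD1skm-/- replicate 2 were low, and the groups overlapped at a log2 fold change of -0.15 (SE 0.16, interval -0.52 to 0.23, adjusted p = 0.775), and -0.22 without Ctrl replicate 4 (adjusted p = 0.456). It was -0.01 without LSD1skm-/- replicate 2, -0.30 without LSD1skm-/- replicate 1 and -0.04 without Ctrl replicate 3. *Cry1* was lowest, at 0.11, without Ctrl replicate 2.

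*Nr1d1* (ENSMUSG00000020889.11, chr11:98767932-98775333, - strand) encodes REV-ERBα, the repressor of *Arntl*. It stood at 40.1, 50.6, 36.4 and 76.5 CPM in Ctrl and at 42.5 and 39.2 CPM in LSD1skm-/- libraries. Ctrl replicate 4 was far above the rest, Ctrl replicate 2 was next, and the LSD1skm-/- libraries lay inside the Ctrl range. The log2 fold change of -0.32 (SE 0.28, interval -0.98 to 0.34, adjusted p = 0.719) was the lowest of the clock genes, and rested on that library: without it the value was -0.05 (SE 0.15, adjusted p = 0.886). Ctrl replicate 4 also held the highest summed adipocyte (489 CPM), endothelial (188 CPM) and Schwann cell (156 CPM) markers, and their part in its *Nr1d1* level was not tested.

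*Dbp* (ENSMUSG00000059824.12, chr7:45705088-45710203, + strand) is a direct output of the activators and drives D-box genes. It stood at 98.7, 129, 79.3 and 101 CPM in Ctrl and at 76.5 and 98.2 CPM in LSD1skm-/- libraries. Ctrl replicate 2 was high, Ctrl replicate 3 and LSD1skm-/- replicate 1 were low, and LSD1skm-/- replicate 2 was close to Ctrl replicates 1 and 4. The log2 fold change was -0.22 (SE 0.20, interval -0.68 to 0.24, adjusted p = 0.718), and -0.22 without Ctrl replicate 4. It was -0.06 without LSD1skm-/- replicate 1, -0.41 without LSD1skm-/- replicate 2 and -0.09 without Ctrl replicate 2, so its size rested on single libraries of both groups.

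Some clock genes share exonic bases with a gene on the opposite strand, *Nr1d1* with *Thra* (263 bases, 8.55% of its exonic length), *Dbp* with *Sphk2* (539 bases, 18%), *Cry2* with D930015M05Rik (295 bases, 4.67%) and *Arntl* with Gm45355 (33 bases, 0.439%). The kit marks strand, but the strand setting of the counting is not given in the sources used here, so reads of these stretches are uncertain. *Thra* had 1983 reads in Ctrl replicate 4 and 2315 in LSD1skm-/- replicate 2, so it was not highest where *Nr1d1* was. *Sphk2* had 452 to 574 reads per library, beside 2427 to 4406 for *Dbp*.

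Over the clock genes as a list, 0 of 9 passed p under 0.05 with a fold above 1.3 or below 0.77 in edgeR, beside 6.31% of all 11364 genes tested (3.43% higher and 2.88% lower). At an unadjusted p under 0.05 the count was also 0 of 9, beside 8.9% of all genes, and at an adjusted p under 0.05 it was 0, as it was for all genes. The Wald test of DESeq2 gave 0 of 9 at each of these thresholds. Of the 9 tested genes, 8 had a log2 fold change below 0, with a median of -0.20, beside 51.4% and a median of -0.01 over all genes. Without Ctrl replicate 4, 15.2% of all genes passed the p and fold thresholds, 20.2% an unadjusted p under 0.05 and 5.39% the adjusted p, and again 0 of 9 clock genes passed any of them in edgeR or DESeq2. The same 8 genes had a log2 fold change below 0 there, beside 51% of all genes. In that comparison 2 of 9 clock genes, *Clock* and *Cry1*, had LSD1skm-/- libraries wholly outside the Ctrl range, beside 37.7% of all genes. With 9 genes, a count of 0 is near the background share of 6.31%. In the fit of all 6 libraries the 95% interval of each of the 9 genes reached past the fold threshold in a direction, so changes of that size were not excluded.

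**Figure D2:**
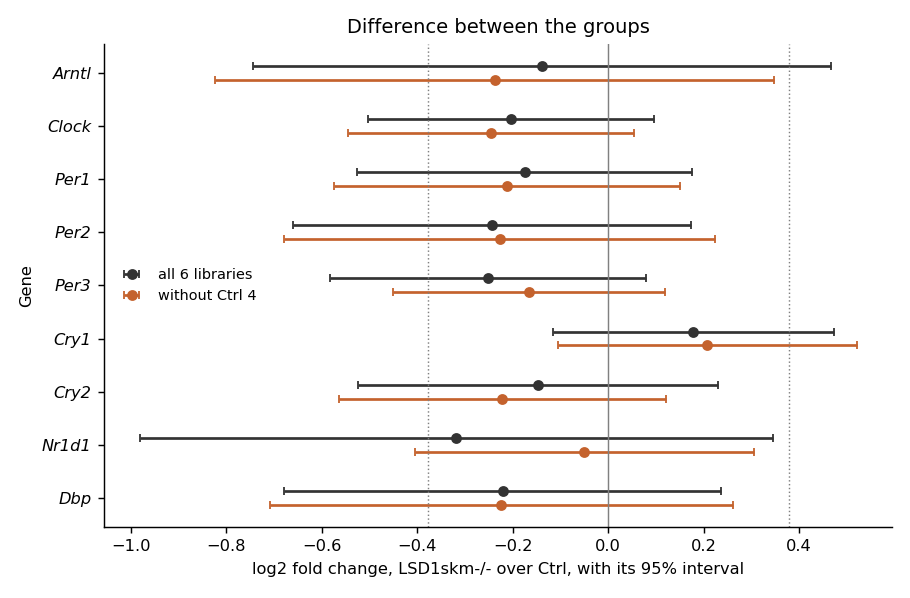
log2 fold change of LSD1skm-/- over Ctrl (x axis) for the 9 tested clock genes (y axis), with 95% intervals from edgeR's quasi-likelihood fit as bars, for all 6 libraries (black) and without Ctrl 4 (orange); dotted lines mark folds of 1.3 and 0.77. Every interval crosses 0, and the *Nr1d1* estimate moves from -0.32 to -0.05 without Ctrl 4.

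Ratios of reads within a library do not depend on the scaling between libraries. *Arntl* reads per *Nr1d1* read, which set the activator against its repressor, were 0.398, 0.208, 0.471 and 0.140 in Ctrl and 0.348 and 0.252 in LSD1skm-/- libraries. This ratio ranged 3.37-fold, was highest in Ctrl replicate 3 and lowest in Ctrl replicate 4, and both LSD1skm-/- libraries lay between. *Arntl* reads per *Dbp* read were 0.162, 0.0819, 0.216 and 0.106 in Ctrl and 0.194 and 0.1 in LSD1skm-/- libraries, a range of 2.63-fold. The same 3 libraries were high in both ratios, Ctrl replicates 3 and 1 and LSD1skm-/- replicate 1. These were the libraries high in *Arntl* itself, which both ratios share, so the ratios are not independent of each other. Ratios within a family moved less, by 1.43-fold for *Per1* to *Per2* and 1.56-fold for *Cry1* to *Cry2*. This was not particular to families, since *Arntl* to *Per1* moved 1.59-fold and *Arntl* to *Clock* 1.65-fold. *Nr1d1* reads per *Dbp* read were 0.407, 0.393, 0.458 and 0.760 in Ctrl and 0.556 and 0.399 in LSD1skm-/- libraries, so Ctrl replicate 4 stood out for *Nr1d1* and not for *Dbp*.

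The mean log2 CPM of the 3 activators minus that of the other 7 clock genes was -3.29, -3.30, -2.74 and -3.19 in Ctrl and -2.87 and -3.12 in LSD1skm-/- libraries. Ctrl replicate 3 was highest, with LSD1skm-/- replicate 1 next, and the groups overlapped. The mean was -3.13 ± 0.27 (SD, n = 4) in Ctrl and -2.99 ± 0.18 (SD, n = 2) in LSD1skm-/- muscle, a difference of 0.14 that was smaller than the spread between Ctrl libraries. Part of this library order rested on *Npas2* and its few reads. With *Npas2* left out of the activators, Ctrl replicate 3 (-0.904) was still highest, but Ctrl replicate 1 was next (-0.927). LSD1skm-/- replicate 1 (-0.983) lay below them, and Ctrl replicate 4 was lowest (-1.43). The difference between the groups was then -0.01. With all 3 activators and without Ctrl replicate 4 it was 0.12, and over the fits that each left out a library it ranged from 0.01 (without LSD1skm-/- replicate 1) to 0.27 (without Ctrl replicate 3).

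**Figure D3:**
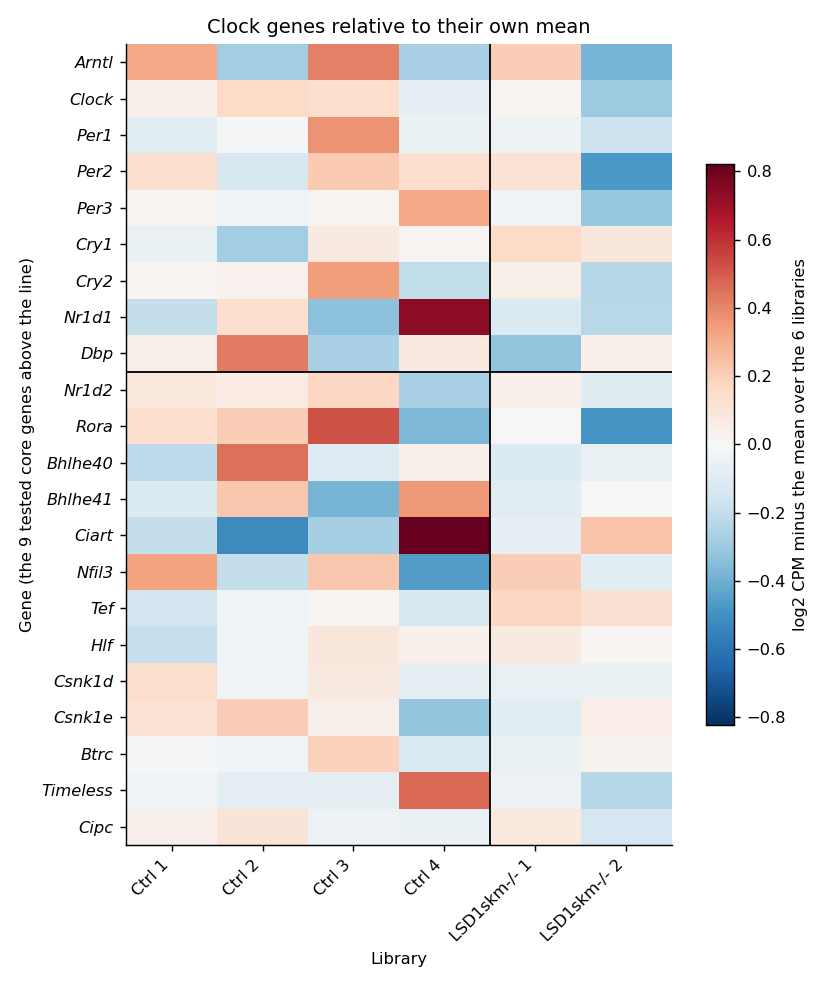
log2 CPM of tested clock genes (rows; the 9 core genes above the line, 13 of the 15 tested further clock genes under it), each minus its own mean over the 6 libraries (colour, log2 units), by library (columns; the vertical line parts Ctrl from LSD1skm-/-). *Arntl* and *Nfil3* are red in Ctrl 1, Ctrl 3 and LSD1skm-/- 1, and *Nr1d1* and *Ciart* are darkest in Ctrl 4.

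*Nfil3*, a repressor of D-box genes that like *Arntl* is a target of REV-ERBα, stood at 73.8, 51.4, 68.5 and 42.8 CPM in Ctrl and at 67.5 and 55.3 CPM in LSD1skm-/- libraries. Its 3 highest libraries were those of *Arntl*. Both carry the ROR element in the stretches shown above. *Arntl* reads per *Nfil3* read ranged 1.40-fold (0.179 to 0.250), less than *Arntl* alone (1.73-fold). This was not particular to *Nfil3*, since *Arntl* to *Per1* (1.59-fold) and *Arntl* to *Clock* (1.65-fold) also ranged less than *Arntl* alone. The same 3 libraries were highest for 357 of all genes tested (3.14%).

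**Figure D4:**
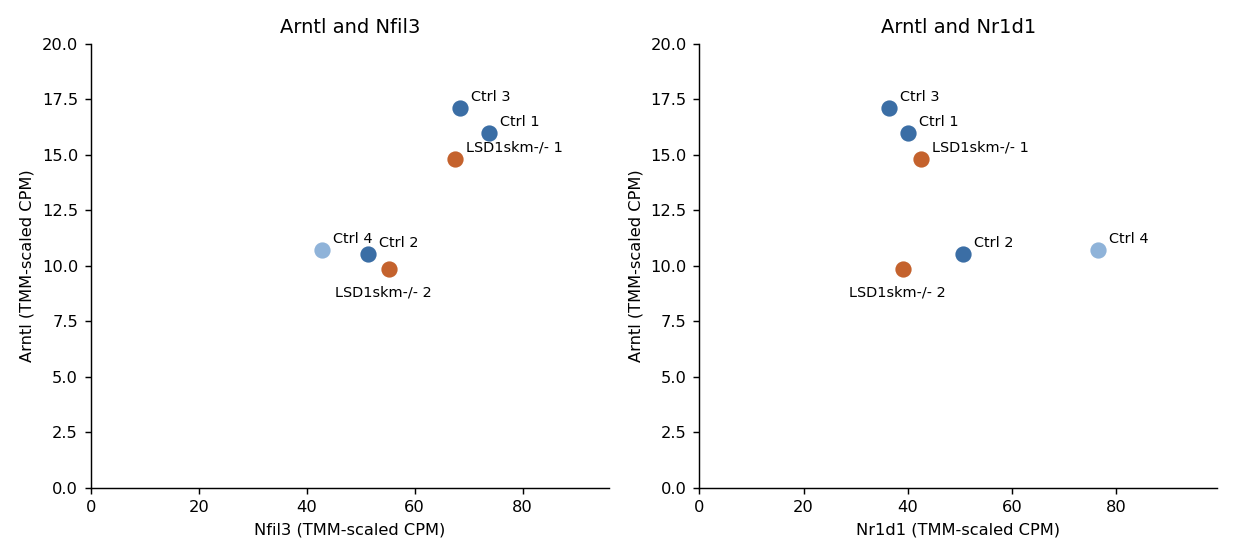
*Arntl* level (y axes) against *Nfil3* (left, x axis) and *Nr1d1* (right, x axis) in each library, all in TMM-scaled CPM (dark blue Ctrl 1 to 3, light blue Ctrl 4, orange LSD1skm-/-). The 3 libraries high in *Arntl* are also the 3 highest in *Nfil3* (67.5 to 73.8), while *Nr1d1* is at 36.4 to 42.5 in them and at 39.2 to 76.5 in the others.

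The genes most like *Arntl* by Pearson correlation of log2 CPM over the 6 libraries were *Bclaf1* (0.993), *Map3k8* (0.980) and *Kcnq5* (0.979). Those most like *Dbp* were *Glyr1* (0.989), *Abi3* (0.986) and *Stradb* (0.975). They were the highest of 11364 genes over 6 points that share the libraries and their scaling, so the values are a description. *Glyr1* moved only from 46.6 to 47.9 CPM, against 76.5 to 129 CPM for *Dbp*.

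The spread of the clock genes between libraries was set beside that of all genes without use of the labels. The SD of log2 CPM over the 6 libraries was 0.394 for *Nr1d1*, at the 86.4th percentile of all genes tested, 0.347 for *Arntl* (82.1), 0.271 for *Dbp* (71.2) and 0.260 for *Per2* (69.0). *Cry1* (36.7) and *Clock* (41.8) lay below the middle. The median clock gene had an SD of 0.206, beside 0.191 over all genes, and 6 of 9 lay above that median. By this measure the clock genes as a list varied about as much as other genes, with *Nr1d1* and *Arntl* toward the upper end. Within the Ctrl libraries the median percentile was 62.1, with *Nr1d1* at 91.1 and *Arntl* at 84.7. The percentiles did not account for count level, and the tested clock genes averaged 465.5 to 3475 counts.

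**Figure D5:**
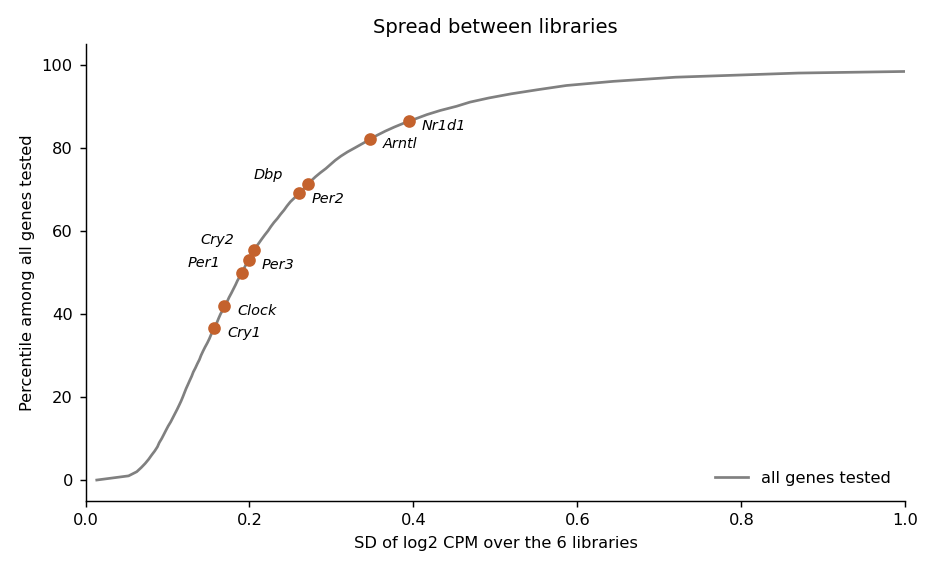
SD of log2 CPM over the 6 libraries (x axis) against its percentile among the 11364 genes tested (y axis; grey line), with the 9 tested clock genes as points. *Nr1d1* and *Arntl* lie at percentiles 86.4 and 82.1, and the other 7 between 36.7 and 71.2.

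Of 18 further clock genes, 15 were tested and 0 passed an unadjusted p under 0.05 in edgeR by the labels. Their median log2 fold change was -0.04, and 2 of the 15 lay wholly above the Ctrl range, beside 9.8% of all genes tested. *Tef*, a relative of *Dbp*, stood at 303, 327, 341 and 306 CPM in Ctrl and at 378 and 367 CPM in LSD1skm-/- libraries, both above the Ctrl range (log2 fold change 0.22, SE 0.10, adjusted p = 0.557, and 0.20 with adjusted p = 0.319 without Ctrl replicate 4). Without Ctrl replicate 4, *Rora*, an activator at ROR elements, had a log2 fold change of -0.52 (unadjusted p = 0.0224, adjusted p = 0.164 in edgeR). In that comparison 20.2% of all genes tested had an unadjusted p under 0.05. *Ciart*, a repressor of the activators, was at 9.14 CPM in Ctrl replicate 4, the library highest in *Nr1d1*, and at 3.60 to 6.09 CPM in the others.

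Of 9 genes known to cycle in muscle or other tissues, all tested, *Usp2*, a deubiquitinase driven by the clock, had an unadjusted p under 0.05. It stood at 286, 249, 282 and 287 CPM in Ctrl and at 320 and 376 CPM in LSD1skm-/- libraries, both above the Ctrl range. Its log2 fold change was 0.34 (SE 0.12, adjusted p = 0.557 in edgeR), below the fold threshold, and 0.36 without Ctrl replicate 4 (adjusted p = 0.144). *Tfrc*, the transferrin receptor, lay above the Ctrl range too, at 335 and 314 CPM beside 183 to 299 CPM (log2 fold change 0.40, SE 0.18, adjusted p = 0.558, and 0.44 with adjusted p = 0.256 without Ctrl replicate 4). Of the 9 genes, 2 thus lay wholly above the Ctrl range, beside 9.8% of all genes tested. An unadjusted p under 0.05 was reached by 1 of the 9, beside 8.9% of all genes tested. *Wee1*, a cell cycle kinase, had an unadjusted p of 0.0217 only without Ctrl replicate 4, at a log2 fold change of 0.47 (adjusted p = 0.162). In that comparison 2 of the 9 had an unadjusted p under 0.05, beside 20.2% of all genes tested.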

How the data were processed

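RNA-seq of gastrocnemius muscle was analysed from the counts per gene that the authors deposited. Per the labels, polyA RNA libraries were made with a strand-marking kit. The submitters' processing notes name bcl2fastq 2.20.0.422, and the study's methods name another version of it. Per the methods, adapter dimers were removed, reads were aligned to mm10, and unique reads were kept. The aligner and the strand setting are not given in the sources used here. Of 8 labelled libraries, 6 had counts.

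Rows averaging more than 50 counts across the 6 libraries (11364 of 27041) were compared with edgeR 4.0.16 in R 4.3.3 (TMM scaling, quasi-likelihood test, Benjamini-Hochberg adjustment over all genes tested), with p under 0.05 and a fold above 1.3 or below 0.77 as thresholds. DESeq2 1.42.0 was the alternative, beside other scalings and filters, a replicate block and leaving out each library. The code was tested on simulated data. CPM values are TMM-scaled, and log2 CPM used a prior count of 2. Poisson intervals (95%) cover counting error only. Coordinates and exon lengths come from the GENCODE annotation of GRCm38, and windows from RefSeq. The libraries held 30654828 to 41278769 reads, and the number of libraries limits the precision of each comparison.

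The clock genes and the other lists were chosen with earlier results of these data known. All clock genes are named. Of the other lists, genes are named that had an unadjusted p under 0.05 with or without Ctrl replicate 4, or that are set beside a clock gene. *Tef*, *Tfrc* and *Ciart* were named after their values were seen. Some genes of the further lists are not reported here. Counts of each pair of libraries differed by more than sampling noise. Replicate numbers 1 and 2 are shared by the groups, but the labels do not tie them to a shared litter or day, so the numbers were not taken as pairs.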

Additional observations from a re-analysis of the deposited data

Results flagged for a closer look

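Among 34 genes examined, 5 had a Ctrl library whose gap to its nearest neighbour, as a share of the whole Ctrl range on the log2 scale, was above Dixon's 95% critical value for 4 libraries. Chance gives about 1 such group in 20. *Per1* stood apart in Ctrl replicate 3 (gap 0.841), where it was at 90.6 CPM beside 66.0 to 69.4 CPM in the other Ctrl libraries. *Per3* stood apart in Ctrl replicate 4 (gap 0.847), at 25.2 CPM beside 19.9 to 20.6 CPM. *Timeless*, a clock-associated replication factor, stood apart in Ctrl replicate 4 as well (gap 0.892), at 3.29 CPM beside 2.25 to 2.34 CPM. *Usp2* was low in Ctrl replicate 2 (gap 0.875), at 249 CPM beside 282 to 287 CPM. *Kdm1a*, the targeted gene, was low in Ctrl replicate 4 (gap 0.879), at 3.66 CPM beside 22.0 to 28.1 CPM, and on the linear scale its gap of 0.750 was under the critical value. The causes of these gaps were not tested.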

How the results depend on the processing

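Clock genes called by p and fold numbered 0 by the labels and under each scaling, filter and test tried, except under the replicate block (1, *Dbp* at a log2 fold change of -0.38) and without LSD1skm-/- replicate 1 (2, *Clock* and *Per2*), a range of 0 to 2 with a library left out. The adjusted p passed for 0 clock genes in every setting. Log2 fold changes kept their sign in all settings except *Arntl* (0.126) and *Per2* (0.0233), both without LSD1skm-/- replicate 2. With a library left out they ranged from -0.465 to 0.126 for *Arntl* and from -0.575 to 0.0233 for *Per2*, lowest without LSD1skm-/- replicate 1. Over all genes, 717 passed p and fold and 0 the adjusted p. Without the filter these counts were 1909 and 149, and with the replicate block 1668 and 632. With DESeq2 they were 836 and 46, and with DESeq2 without Ctrl replicate 4, a setting chosen after seeing the data, 1664 and 1056. With each library left out in turn they ranged from 340 to 1724 and from 0 to 612, the highest of both without Ctrl replicate 4, while leaving out Ctrl replicate 1 gave 474 and 0, Ctrl replicate 3 571 and 6, and LSD1skm-/- replicate 2 340 and 0. The middle clock gene's percentile of spread, 55.5, was 59.1 with scaling by library size alone and 56 without Ctrl replicate 4. The cause of these shifts was not tested. In the block fit, Ctrl replicates 3 and 4 had no same-numbered LSD1skm-/- library with counts. Its group difference therefore rested on replicates 1 and 2 of each group, without Ctrl replicate 4. Deviations of same-numbered libraries from their group means correlated at -0.233 and -0.0334. With 2 LSD1skm-/- libraries these deviations mirror each other (-0.233 and 0.233 for Ctrl replicate 1), so they cannot show whether the numbers are pairs. The block result is only a description. Leaving out an LSD1skm-/- library leaves 1 in that group, assumed to vary like Ctrl. *Npas2*, with 3 to 15 reads, is limited by depth, and the other clock genes by the number of libraries.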

Other observations

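Genes of the glucocorticoid, temperature and immediate early lists were set beside *Nr1d1*, after their values had been seen. Among them are the glucocorticoid receptor gene *Nr3c1* and *Cirbp*, which is induced by cold. *Nr1d1* was highest in Ctrl replicates 4 and 2 and LSD1skm-/- replicate 1. The place of LSD1skm-/- replicate 1 was within counting error. Its Poisson interval (40.3 to 44.9 CPM) overlapped that of Ctrl replicate 1 (38.05 to 42.3 CPM). Of 26 genes of these lists tested, 6 (23.1%) had the same 3 highest libraries, beside 3.52% of all 11364 genes tested. They were *Hspa1a*, *Hspa1b*, *Dnajb1* and *Hsp90aa1*, which encode heat shock proteins, and *Fos* and *Egr1*, which encode immediate early transcription factors. *Hspa1a* stood at 4.89, 49.8, 9.83 and 26.4 CPM in Ctrl and at 12.9 and 2.42 CPM in LSD1skm-/- libraries, and *Fos* at 3.65, 43.3, 5.04 and 47.9 CPM and at 22.6 and 2.71 CPM. These genes are induced together, so their counts are not independent of each other.

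*Klf15* and *Cebpd*, which glucocorticoids induce in muscle, ran through the 6 libraries in the reverse order of *Nr1d1* by their CPM values. They were 2 of the 26 genes (7.69%), beside 17 of all genes tested (0.15%). The other genes of the glucocorticoid list did not run in that order. Below Ctrl replicates 4 and 2, the *Nr1d1* order was within counting error between neighbours. Poisson intervals were 40.3 to 44.9 CPM in LSD1skm-/- replicate 1, 38.05 to 42.3 in Ctrl replicate 1 and 37.2 to 41.2 in LSD1skm-/- replicate 2. Matches to this order are therefore uncertain. *Klf15* stood at 53.4, 43.1, 74.1 and 27.2 CPM in Ctrl and at 51.4 and 56.2 CPM in LSD1skm-/- libraries. *Cebpd* stood at 101, 57.8, 135 and 47.3 CPM and at 66.4 and 108 CPM. Neither *Klf15* nor *Cebpd* passed the test between the groups. Of the 11 genes of the glucocorticoid list, *Nr3c1* included, 0 passed an unadjusted p under 0.05 in edgeR, by the labels or without Ctrl replicate 4. What moved these genes with or against *Nr1d1* was not tested.

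Of the temperature-responsive genes, *Cirbp*, a cold-induced RNA-binding protein, stood at 22.3, 21.9, 22.7 and 21.1 CPM in Ctrl and at 17.4 and 18.9 CPM in LSD1skm-/- libraries. Both LSD1skm-/- libraries lay below the Ctrl range, with a log2 fold change of -0.28 (SE 0.10, unadjusted p = 0.0229, adjusted p = 0.557 in edgeR), short of the fold threshold, and -0.30 without Ctrl replicate 4 (adjusted p = 0.160). It was 1 of 8 tested genes of this list to lie outside the Ctrl range, beside 17.8% of all genes tested. Of the immediate early genes, *Jun* (log2 fold change -0.60, adjusted p = 0.557) and *Atf3* (-1.49, adjusted p = 0.557) passed the unadjusted p and fold thresholds and not the adjusted one. They were at -0.66 (adjusted p = 0.0998) and -1.53 (adjusted p = 0.239) without Ctrl replicate 4. By the labels they were 2 of 7 tested immediate early genes past both thresholds as lower, beside 2.88% of all genes tested. Of 5 tested genes of fasting and feeding, 0 passed an unadjusted p under 0.05 in edgeR.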
